A study of Mus musculus with 6 samples.

Results

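Of 8040 new lncRNA records from mouse cortex, 252 (3.13%) shared an exact stretch of at least 50 nt with the reverse complement of a record. They were found by searching every 50-nt word of every deposited sequence against the reverse complement of all of them. The 252 records comprised 249 that matched another record, in 416 pairs, and 3 that matched themselves. The 3 self-complementary records were in no pair. The working name for these records was sense-antisense overlapping new lncRNAs. Whether they overlap as sense and antisense transcripts of the same locus was not tested. No exact stretch outside simple repeats reached from record end to record end, and 83 of 95 such stretches lay in longer alignments that were not identical, 5 of which did reach from record end to record end. The alignments of the other 12 were exact, and 8 of these ended at a record end on 1 side. All 60 records with a match of at least 200 nt to a RefSeq promoter ran along the plus strand of the genome. Only 2 of them are members. Of 42 records with a match of 100 to 199 nt, 4, 1 of them a member, ran along the minus strand. Some of these shorter matches may lie away from the record's own locus. The records are therefore described here by the rule, as lncRNAs with inverted stretches.

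Cortex around the bleeding areas was sequenced in 6 libraries from wild type C57BL/6 mice, named C57BL/6 J in the study's methods. The 3 control libraries came from mice labelled normal, which the study's methods describe as operated on without perforation, and the 3 SAH libraries from mice at 24 h after subarachnoid haemorrhage by endovascular perforation. Every library pooled the lysates of 3 adult male mice. The deposited records are pooled over all libraries and hold an identifier, an RNA sequence, a secondary structure and a folding free energy for each new lncRNA, with no value per library, so the depth behind a record is unknown and control and SAH could not be compared.

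A transcript and an antisense transcript from the opposite strand of the same locus carry complementary bases over their shared exons, and such pairs are known to influence transcription, splicing and stability of each other in many mammalian genes. Complementary stretches also arise from repeats that are present in the genome in both orientations. In mouse these include B1 elements, which are short interspersed elements derived from 7SL RNA, fragments of tRNA genes, long terminal repeats and runs of di- to pentanucleotides. Inverted repeats within a transcript can fold back into a long hairpin, the kind of double strand that adenosine deaminases acting on RNA edit.

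The sequences below show the kinds of stretch that made a record a member, with the shared stretch in capitals and up to 20 nt on each side in lower case. For pairs, the second sequence is the reverse complement of the deposited one, so that both can be read in the same direction. The first pair had the longest stretch of all, and its bases resumed agreement after a mismatch.
TCONS_00222353, bases 1 to 277: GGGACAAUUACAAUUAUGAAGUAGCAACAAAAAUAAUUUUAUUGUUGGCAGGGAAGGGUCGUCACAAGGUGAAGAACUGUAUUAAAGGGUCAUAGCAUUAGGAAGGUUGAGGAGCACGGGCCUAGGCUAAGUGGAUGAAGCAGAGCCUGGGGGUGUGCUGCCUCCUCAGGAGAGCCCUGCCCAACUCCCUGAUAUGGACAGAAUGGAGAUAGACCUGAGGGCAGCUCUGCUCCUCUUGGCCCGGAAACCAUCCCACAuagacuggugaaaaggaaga
complement of TCONS_00226184, bases 234 to 530: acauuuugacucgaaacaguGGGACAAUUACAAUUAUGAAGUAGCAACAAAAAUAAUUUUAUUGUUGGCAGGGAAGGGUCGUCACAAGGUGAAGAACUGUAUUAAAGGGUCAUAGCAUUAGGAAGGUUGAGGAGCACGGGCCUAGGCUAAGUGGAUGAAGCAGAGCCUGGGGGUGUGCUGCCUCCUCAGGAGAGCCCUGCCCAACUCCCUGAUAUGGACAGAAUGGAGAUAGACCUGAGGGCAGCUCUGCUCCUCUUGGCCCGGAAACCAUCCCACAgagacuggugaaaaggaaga
The next pair shared a tRNA-like stretch that ended with the 3′ end of the first record.
TCONS_00012777, bases 296 to 392: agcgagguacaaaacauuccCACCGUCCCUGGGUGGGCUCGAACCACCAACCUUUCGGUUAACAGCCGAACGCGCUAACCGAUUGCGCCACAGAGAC
complement of TCONS_00154052, bases 138 to 254: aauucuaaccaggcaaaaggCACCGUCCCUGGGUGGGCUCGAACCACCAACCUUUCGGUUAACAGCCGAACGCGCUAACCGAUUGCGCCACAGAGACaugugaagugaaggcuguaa
The following pair shared a stretch whose 30-nt words occurred in no record but these.
TCONS_00007523, bases 512 to 596: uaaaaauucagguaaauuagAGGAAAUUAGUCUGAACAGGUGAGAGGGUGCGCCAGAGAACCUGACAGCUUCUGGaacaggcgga
complement of TCONS_00130272, bases 1 to 75: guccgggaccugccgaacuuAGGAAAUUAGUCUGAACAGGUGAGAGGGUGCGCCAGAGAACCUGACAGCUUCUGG
The longest CU or AG repeat and the longest AC or GU repeat of the pairs show the simple repeats.
TCONS_00075822, bases 761 to 859: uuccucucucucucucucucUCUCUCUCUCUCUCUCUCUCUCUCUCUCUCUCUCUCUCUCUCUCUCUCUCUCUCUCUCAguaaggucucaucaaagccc
complement of TCONS_00133598, bases 209 to 307: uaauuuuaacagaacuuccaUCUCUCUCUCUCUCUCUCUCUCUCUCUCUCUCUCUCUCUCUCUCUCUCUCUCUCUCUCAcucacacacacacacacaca
TCONS_00007975, bases 520 to 614: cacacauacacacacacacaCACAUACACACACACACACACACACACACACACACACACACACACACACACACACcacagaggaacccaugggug
complement of TCONS_00166133, bases 1431 to 1525: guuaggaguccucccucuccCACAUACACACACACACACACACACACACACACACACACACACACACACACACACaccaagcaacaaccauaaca
The 3 self-complementary records are shown by both arms, or by the palindrome where the arms are the same bases.
TCONS_00250339, bases 420 to 551: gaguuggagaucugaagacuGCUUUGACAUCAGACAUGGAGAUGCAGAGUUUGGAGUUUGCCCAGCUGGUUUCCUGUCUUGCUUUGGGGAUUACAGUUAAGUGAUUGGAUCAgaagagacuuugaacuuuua
TCONS_00250339, bases 8746 to 8877: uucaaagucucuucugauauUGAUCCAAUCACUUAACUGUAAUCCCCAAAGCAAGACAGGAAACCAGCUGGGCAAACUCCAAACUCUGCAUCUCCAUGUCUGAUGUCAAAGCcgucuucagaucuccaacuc
TCONS_00131673, bases 110 to 203: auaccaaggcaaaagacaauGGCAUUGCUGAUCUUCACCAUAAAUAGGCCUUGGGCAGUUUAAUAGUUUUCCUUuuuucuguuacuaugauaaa
TCONS_00131673, bases 1303 to 1396: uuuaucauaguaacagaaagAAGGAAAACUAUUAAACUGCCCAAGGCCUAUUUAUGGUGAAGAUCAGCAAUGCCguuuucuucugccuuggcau
TCONS_00140990, bases 746 to 835: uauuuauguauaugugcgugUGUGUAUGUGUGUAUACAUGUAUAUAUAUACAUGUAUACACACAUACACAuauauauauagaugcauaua

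The genome strand of the deposited sequences was read from RefSeq promoter windows of 300 nt (GRCm38.p6). There were 60 records that shared at least 200 nt with a window at 1 place in the genome. All 60 ran along the plus strand, although 25 of the matched genes lie on the minus strand and 35 on the plus strand. Of 42 records with a match of 100 to 199 nt, 38 ran along the plus strand and 4 along the minus strand, the 4 by matches of 105 to 121 nt. Among the members, TCONS_00036995 and TCONS_00166313 matched a whole window, of the lncRNA genes Gm12059 (chr11:23064814-23065113, plus strand) and Gm32117 (chr4:124736240-124736539, plus strand), and both ran along the plus strand. The member TCONS_00141615 was among the 4 along the minus strand, by 105 nt of the window of Gm38514 (chr11:118134819-118135118). It shared 50 nt or more with 9 windows. The paper places a new lncRNA with a close identifier on chromosome 2, where TCONS_00139766 also matched. Likewise, TCONS_00121167 matched chromosome 6 between records on chromosome 19, and TCONS_00223550 chromosome 1 between records on chromosome 8. Matches of this kind may lie away from the record's own locus and then do not give its strand. TCONS_00133141 had the longest of the 4 minus-strand matches, 121 nt of LOC115489542 (chr2:175037944-175038243), and lay between records on chromosome 2. Its chromosome gave no sign of a match away from its locus. The other records were not placed on the genome here. Where all sequences are written along the same genome strand, 2 transcripts from opposite strands of the same locus share bases as deposited, and a reverse-complement search cannot find them. The labels say that a cDNA strand was marked with dUTP. The paper lists a position and a strand for its top new lncRNAs, some of them on the minus strand. How that strand was assigned is not given in the sources used here. Whether the deposited sequences are written along the listed strand was not checked.

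Most pairs rested on simple repeats. A stretch counted as a simple repeat when it held fewer than 8 distinct dinucleotides, and 321 of the 416 pairs (77.2%) did, between 134 records. The other 95 pairs joined 118 records, and 3 records were in pairs of both kinds. The kinds did not grade into each other: simple stretches held at most 7 distinct dinucleotides and the others at least 13. Shared stretches were short. Their median was 52 nt over all pairs (quartiles 51 and 55 nt), 52 nt for simple repeats with a maximum of 70 nt, and 56 nt for the others with a maximum of 257 nt. Only 7 stretches reached 100 nt, all outside simple repeats. The limit of 50 nt fell within the bulk of the lengths. There were 155 pairs at 50 or 51 nt, such as TCONS_00022603 with TCONS_00064661 and TCONS_00025584 with TCONS_00142012, both at 50 nt. Just outside, 23 pairs of records that are not members shared 48 or 49 nt, such as TCONS_00038340 with TCONS_00206189 and TCONS_00049008 with TCONS_00142565, both at 49 nt.

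The same search without taking the complement was made for comparison. Outside simple repeats, 2253 pairs of records shared at least 50 nt as deposited, with a median longest stretch of 503 nt and a maximum of 4001 nt. At least 100 nt were shared by 1885 of these pairs (83.7%), against 7 of 95 (7.37%) for the complement. Same-strand stretches were bounded by a record end on both sides in 1628 pairs (72.3%). Same-strand pairs can include overlapping records of the same locus, which were not set apart. The contrast in length therefore does not tell what the complement stretches are.

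**Figure D1:**
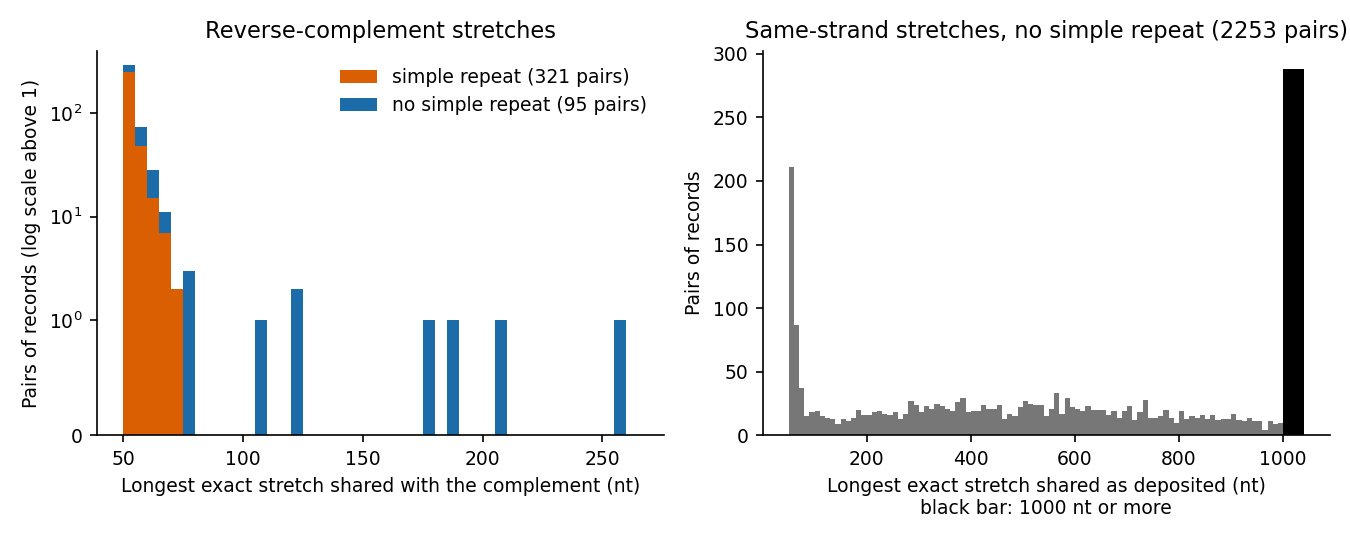
Number of pairs of records (y axis) by the longest exact stretch they shared (x axis, nt), for the complement on the left (orange, 321 simple-repeat pairs; blue, 95 others; y axis on a log scale above 1) and for the deposited strand on the right (2253 pairs; the black bar holds all of 1000 nt or more). Complement stretches lay between 50 and 79 nt except for 7, whereas same-strand stretches had a median of 503 nt.

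An overlap at the starts of 2 transcripts is head-to-head, and one at their ends is tail-to-tail. With up to 10 nt allowed to a record end, no pair was tail-to-tail, no record was contained in the complement of another, and 2 pairs were head-to-head. Both were runs of AAAG or CUUU: TCONS_00037561 with TCONS_00113017 over 58 nt, and TCONS_00113017 with TCONS_00228203 over 53 nt. Neither was bounded at 0 nt on both sides. Of the 95 pairs outside simple repeats, 33 stretches had a record end on 1 side and 62 lay inside both records. Of the 321 simple pairs, 23 had a record end on 1 side and 296 lay inside both. A splice junction can also end an exact overlap inside a record, and exon borders could not be checked because the records give none.

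**Figure D2:**
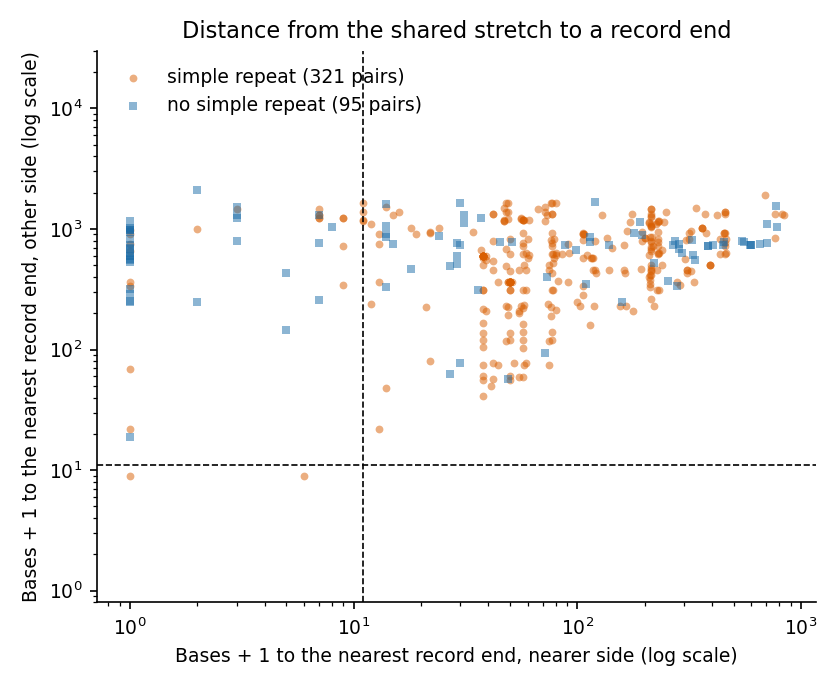
Bases plus 1 from the shared stretch to the nearest end of either record, on the nearer side (x axis) and on the other side (y axis), both on log scales, for 321 simple-repeat pairs (orange) and 95 others (blue), with dashed lines at the limit of 10 nt. The 2 head-to-head pairs are the only points below the horizontal line, and both are simple repeats.

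The bases next to the stretches were compared to see whether the likeness went on. Each of the 95 pairs was aligned to the complement with blastn. The alignment through the stretch held mismatches or gaps in 83 pairs and was exact in 12. Its median length was 84 nt (range 50 to 1592 nt) and its median identity 95.2% (range 84.0 to 100%). In the 20 nt on either side of the stretch, a median of 50% of bases were identical over 149 sides, against a median of 25% over 603 sides of simple repeats. The alignments of 16 pairs were at least 200 nt long and those of 59 pairs were under 100 nt. When mismatches were allowed, 3 alignments reached record ends head-to-head and 2 tail-to-tail, and all 5 held mismatches or gaps.

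The 5 longest stretches outside simple repeats were as follows. TCONS_00222353 (1113 nt) and TCONS_00226184 (1303 nt) shared 257 nt, from base 1 of the former, within an alignment of 510 nt at 97.6% identity with 1 mismatch and 1 gap. TCONS_00222352 (980 nt) shared 205 nt with the same TCONS_00226184, within 677 nt at 99.0% identity with 7 mismatches. Thus TCONS_00226184 was an inverted near-copy of parts of 2 records with neighbouring identifiers. TCONS_00139258 (809 nt) and TCONS_00142646 (915 nt) shared 185 nt, and 796 nt aligned at 99.1% with 6 mismatches and 1 gap. That alignment covered 98.3% of the former and 87.0% of the latter, and it was the most nearly complete of the long ones. TCONS_00047404 (2317 nt) and TCONS_00048146 (1730 nt) shared 177 nt in the longest alignment, 1592 nt at 93.7% identity with 75 mismatches. TCONS_00249740 (2014 nt) and TCONS_00250969 (729 nt) shared the 124 nt at the 3′ end of the former within 285 nt at 95.4% identity. The remaining stretches of at least 100 nt joined TCONS_00137319 with TCONS_00140340 (123 nt, within 1100 nt at 90.3%) and TCONS_00130057 with TCONS_00140526 (108 nt, within 200 nt at 97.5%). In each of these 7 pairs the exact stretch was an identical run within a longer inverted alignment with differences.

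**Figure D3:**
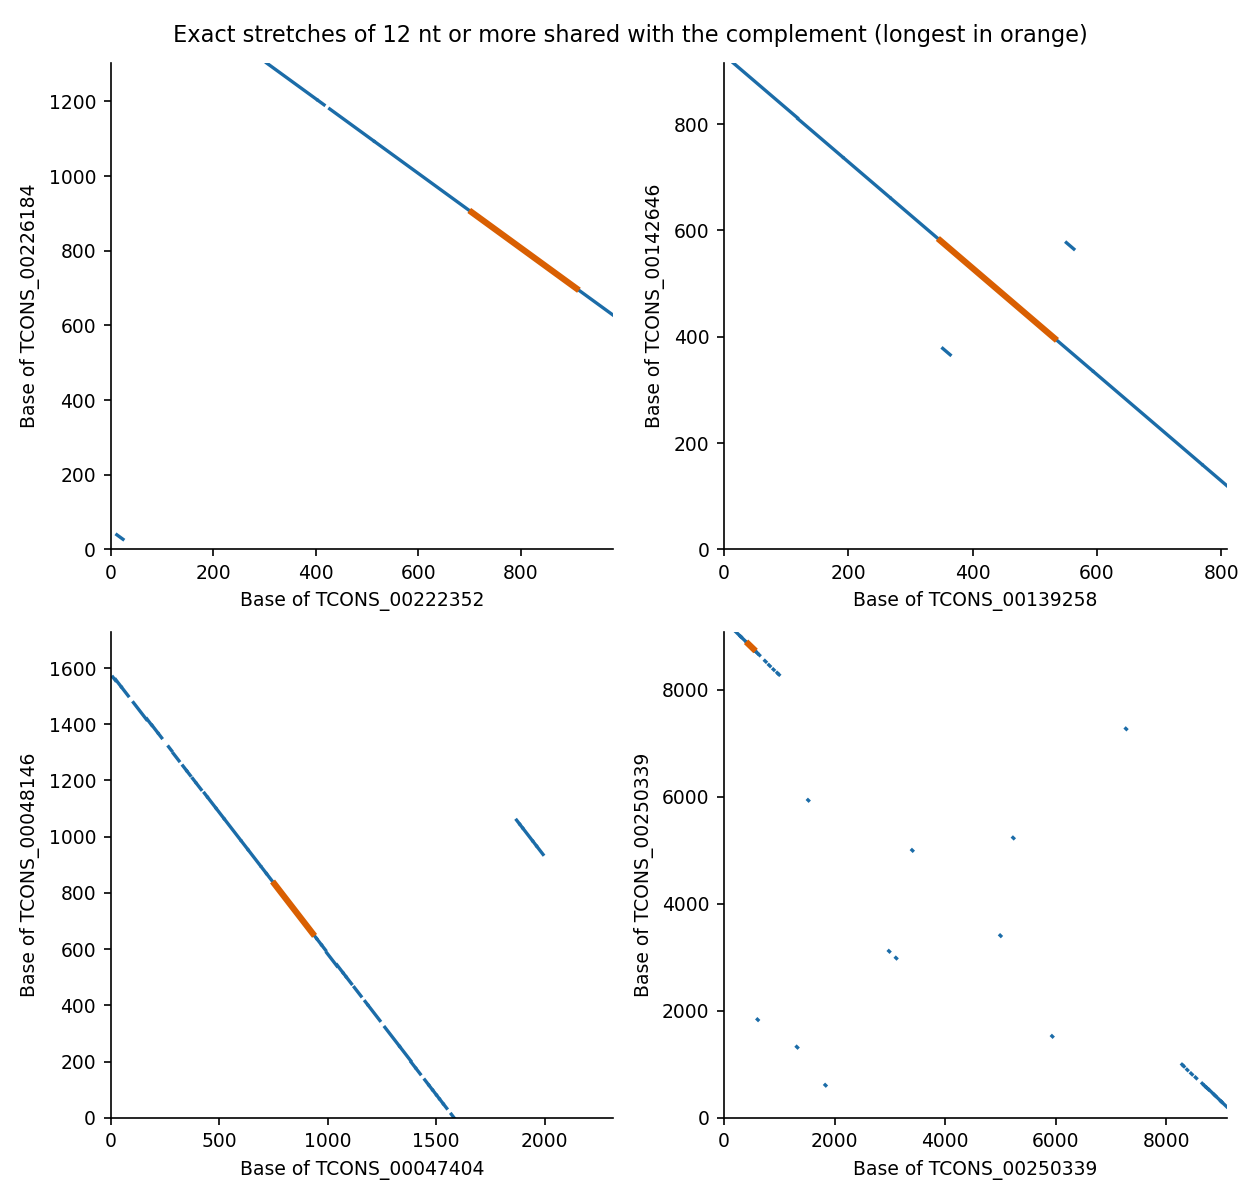
Exact stretches of at least 12 nt between a record (x axis, base) and the complement of its partner (y axis, base), with the longest in orange, for TCONS_00222352 with TCONS_00226184, TCONS_00139258 with TCONS_00142646, TCONS_00047404 with TCONS_00048146, and TCONS_00250339 with itself. Lines that fall from left to right are inverted matches, and the breaks in them are mismatches or gaps, as in the alignment of 1592 nt at 93.7% identity.

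Stretches outside simple repeats were mostly held by further records, which can include overlapping records of the same locus that were not set apart. All 30-nt words of a stretch were searched on either strand, and in 9 pairs they occurred in no record but the pair. Of these 9, 5 lay in alignments of at least 200 nt, including TCONS_00137693 with TCONS_00186358 (62 nt within 585 nt at 86.3%) and TCONS_00247647 with TCONS_00247658 (55 nt within 286 nt at 92.0%). The other 4 aligned over less than 100 nt. TCONS_00007523 and TCONS_00130272 shared 55 nt, from base 1 of the latter, with 15% identity on the only side that could be compared. TCONS_00136214 and TCONS_00248769 shared 55 nt inside both records, with 15 and 45% identity beside it. TCONS_00036442 and TCONS_00058546 shared 56 nt, and TCONS_00166313 and TCONS_00238746 shared 59 nt within 88 nt at 97.7%. The words of the TCONS_00007523 stretch occurred in the promoter windows of 3 genes and those of the TCONS_00136214 stretch in 2.

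The 12 alignments without a difference ranged from 50 to 79 nt, and the bases beside them were 15 to 40% identical. They ended at a record end on 1 side in 8 pairs. The longest joined TCONS_00152066 with the 3′ end of TCONS_00195609 over 79 nt, with words in 12 records and in the promoter windows of 11 genes. TCONS_00110493 shared 67 nt with the same 3′ end. Over the 12, the words occurred in 2 to 49 records.

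**Figure D4:**
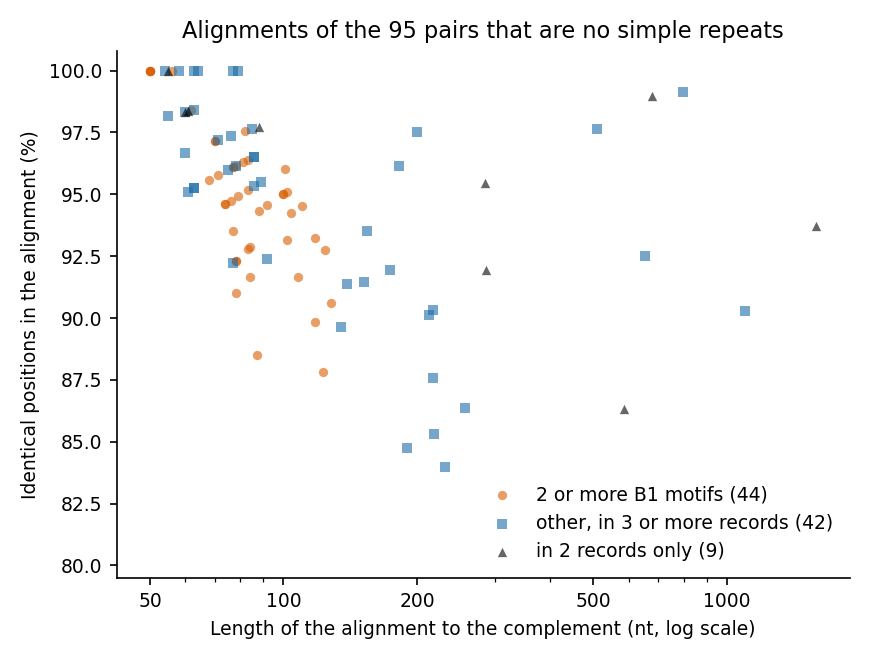
Identical positions (y axis, %) against the length (x axis, nt, log scale) of the alignment to the complement for the 95 pairs outside simple repeats: 44 with at least 2 B1 motifs (orange), 42 others with words in 3 or more records (blue) and 9 with words in 2 records only (black). Alignments with B1 motifs were at most 128 nt long, and the 12 at 100% were 79 nt or shorter.

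B1-like sequence lay in many stretches outside simple repeats. It was called where at least 2 of 7 motifs (UUUAAUCCC, GAGGCAGGC, GGCCAGCCU, GUCUACAGA, UUCCAGGAC, GGGCUACAC and GAAACCCUG) lay on the same strand, searched on both strands. These motifs were chosen after the stretches had been seen. The stretch itself held at least 2 of them in 44 of the 95 pairs, between 41 records. Over whole records, 51 of the 120 members by a stretch that was no simple repeat (42.5%) held them, against 400 of all 8040 records (4.98%). The same stretches gave both the members and the choice of motifs, so no excess is read from these shares. The 44 stretches were 50 to 66 nt long, in alignments of 50 to 128 nt with a median identity of 94.8%. Their 30-nt words occurred in a median of 47 records, against 9 records for the other 51 pairs, and in the promoter windows of a median of 12 genes, against 3. TCONS_00105487 and TCONS_00213526 each appeared in several of these pairs. The B1-like pair with the longest stretch was TCONS_00105487 with TCONS_00121622, at 66 nt.

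A smaller group was tRNA-like. The internal promoter of a tRNA gene consists of an A box and a B box, read here as UGGCNNANU followed after 20 to 75 nt by GUUCNANNC, on either strand and also chosen after the stretches had been seen. Both boxes were found in 11 of the 252 members (4.37%) and in 116 of all records (1.44%). Because of that choice, no excess is read from these shares either. The boxes overlapped the shared stretch in both records of 3 pairs and in at least 1 record of 7, and 1 of these 7 stretches also held 3 of the B1 motifs. TCONS_00012777 (392 nt) ended with the stretch of 77 nt that it shared with TCONS_00154052 (480 nt), and its boxes lay on the complement, 46 nt apart. TCONS_00036750 shared 76 nt of the same sequence with TCONS_00154052. TCONS_00152784 began with a shortened copy, 64 nt shared with TCONS_00012777 and 63 nt with TCONS_00036750. In TCONS_00056929 (353 nt), which began with an A box at base 1, the boxes lay on the deposited strand 54 nt apart, and 66 nt were shared with TCONS_00057779, where they lay on the complement. TCONS_00036442 and TCONS_00058546 shared 56 nt over which boxes were found in the former only. These stretches came within 10 nt of a record end in all of these pairs except that of TCONS_00036750 with TCONS_00154052.

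Simple repeats joined many records through few. Runs of AG on 1 strand and CU on the other made 188 of the 321 pairs, mixed AC and AG runs 55, and AC with GU 49. AAAAC made 11, AAAG 8 and AAAAU 4. The longest simple stretch was 70 nt of AAAAU, between TCONS_00132435 and each of TCONS_00009811 and TCONS_00036356, followed by 67 nt of AC and AG between TCONS_00154727 and each of TCONS_00049224 and TCONS_00214301. The 188 AG pairs came from 11 records with the AG run and 30 with the CU run. The 49 AC pairs came from 44 records with the AC run and 3 with the GU run. The member with most partners was TCONS_00166133, whose GU run met an AC run in 42 records. TCONS_00226184 had 31 partners, 29 of them by its AG run and 2 by the long inverted copies described above. TCONS_00070768 and TCONS_00162404 had 29 partners each, all by an AG run. By contrast, 124 members had 1 partner, and 11 had at least 10. Linked through shared stretches, the members fell into 45 sets, the largest of 119 records, the next of 12, and 23 of only 2.

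The dinucleotide runs were unevenly spread between strands. As deposited, an uninterrupted AC run of 50 nt was present in 35 records and a GU run in 1, and a CU run in 26 records and an AG run in 6. All records with such a run of AC, GU, CU or AG were members, since each kind of run met its complement. At 30 nt, 252 of all records held an AC run and 71 a GU run, and 69 held a CU run and 40 an AG run. On the plus strand of the 32851 RefSeq promoter windows, runs of at least 20 nt were AC in 40 windows and GU in 42, and CU in 16 and AG in 12. The cause of the difference between strands was not tested.

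The 3 self-complementary records differed in form. TCONS_00250339 (9090 nt, the longest member) carried an arm of 92 nt at bases 440 to 531 and its complement at bases 8766 to 8857, with 8234 nt between them. The arms lay in an inverted alignment of 817 nt at 86.3% identity that reached the 3′ end of the record. In the deposited structure, 96.7% of the arm was paired base for base with the other arm, and 92.2% of the first aligned arm of 791 nt with the second. TCONS_00131673 (2016 nt) carried arms of 54 nt with 1139 nt between them, in an alignment of 307 nt at 89.9% identity. Its arms were paired base for base over their whole length, and 93.3% of its first aligned arm of 297 nt was paired with the second. The free energies of these records were -36.1 and -41.1 kcal/mol per 100 nt, and 65.9 and 69.0% of their bases were paired, against medians of -27.9 kcal/mol and 58.9% over all records. The value of TCONS_00131673 was the lowest free energy per 100 nt among the members. TCONS_00140990 (854 nt) held a palindrome of 50 nt with 6 distinct dinucleotides at bases 766 to 815, of which 92% was paired within itself.

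Base pairing in the deposited structures is given here by kind of stretch. Outside simple repeats, a median of 61.0% of the stretch was paired (quartiles 55.6 and 67.5%, 118 records), beside 58.7% of the whole record, and the stretch was paired more than its record in 76 of 118. In simple repeats, the median was 33.0% (quartiles 6 and 60%, 134 records), beside 58.0% of the whole record. A stretch without a paired base was found in 18 of these records and in none of the 118. Among dinucleotide runs, AC runs were paired least, with a median of 6% over 44 records, and CU runs had 48.7% over 30. AG runs had 70.9% over 11 records and GU runs 66% over 3. Records with such runs share partners and often sequence, so no test was made.

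**Figure D5:**
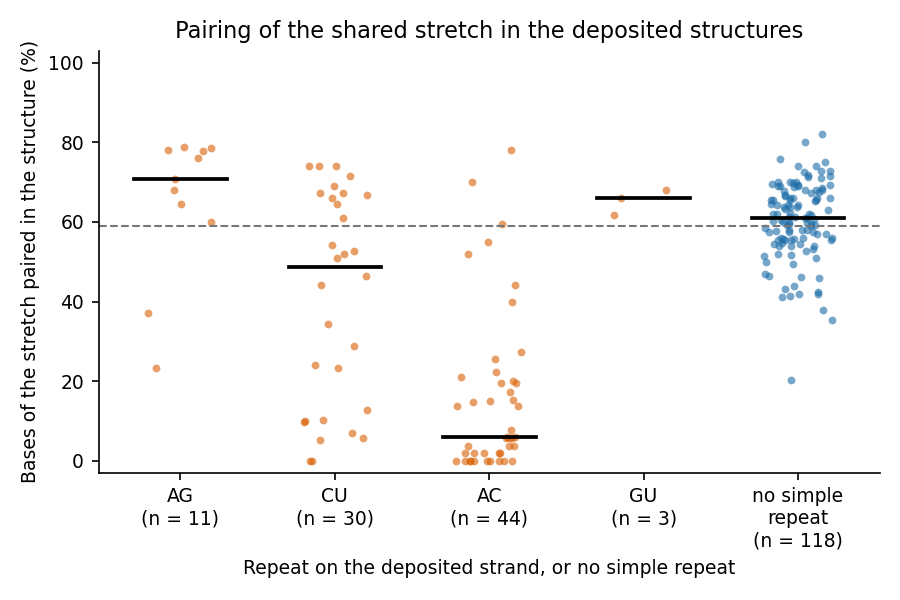
Bases of the shared stretch that are paired in the deposited structure (y axis, %) for records with an AG, CU, AC or GU run and for records with a stretch that is no simple repeat, 1 point per record and kind, with the median as a bar and the median over whole records of all 8040 (58.9%) as a dashed line. AC runs lie lowest, with a median of 6%, and stretches outside simple repeats lie around 61.0%.

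The energy of the perfect duplex between the 2 members of a pair was computed with the parameters that gave the deposited energies. Outside simple repeats, the duplex had a median of -116.6 kcal/mol (range -555.2 to -73.9), against a median of -25.9 for the sum of the 2 stretches each folded alone. In simple repeats, the duplex had a median of -108.4 kcal/mol (range -141.9 to -45), and the separate folds summed to a median of 0. A perfect duplex over at least 50 nt follows from the rule that chose the pairs, so nothing is read from the duplex being lower. The lowest was that of TCONS_00222353 with TCONS_00226184. These are energies of sequences, and no contact between the transcripts was measured.

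The members were also described as whole records. Their median length was 1399.5 nt (quartiles 1002.75 and 1949.75 nt), against 1117 nt over all records, and was 1335.5 nt for members by a stretch that was no simple repeat and 1448 nt for members by a simple repeat. A longer record holds more 50-nt words, so length enters the rule itself. The median GC content was 42.0% against 41.6%, the median free energy -28.0 against -27.9 kcal/mol per 100 nt, and the median paired share 58.3 against 58.9%. A reading frame of at least 100 codons was found on the complement in 27 members (10.7%, Wilson 95% interval 7.47 to 15.1%) and in 600 records in all (7.46%). The interval treats records as independent, which overlapping records are not. The members were also longer than all records, so no excess is read from these shares. On the deposited strand there was none in either, the longest over all records being 99 codons. The paper chose these transcripts for lack of coding potential, so no difference between strands is read from that absence. The longest on the complement were those of TCONS_00183236 (222 codons), TCONS_00166133 (221 codons) and, at 187 codons each, TCONS_00142606 and TCONS_00161217. The polyadenylation signal AAUAAA lay within the last 50 nt of 4 members (1.59%), against 313 records in all (3.89%). On the complement it lay there in 9 members (3.57%), against 291 (3.62%).

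At least 50 nt were shared with a RefSeq promoter window by 56 of the 120 members by a stretch that was no simple repeat (46.7%), by 5 of 135 members by a simple repeat (3.70%) and by 296 of all records (3.68%). Some matches lay on the shared stretch itself, as at bases 731 to 795 of TCONS_00105487 and 1880 to 1937 of TCONS_00027179. The rule therefore enters this contrast, and no excess is read from it. Beyond the 2 whole windows above, the longest match was 156 nt of Gm36589 (chr17:13327813-13328112, minus strand), an lncRNA gene, in TCONS_00101010. This record matched 8 windows, among them 141 nt of Gm36684 and 132 nt of Gm36117 on the same chromosome, and the next longest match was the 105 nt of Gm38514 in TCONS_00141615 given above. TCONS_00166313 also matched 91 nt of Serpina3a (chr12:104112474-104112773, plus strand), a serine protease inhibitor gene, on the opposite strand to the gene. Several B1-like members matched the same windows. TCONS_00105487, TCONS_00213526 and TCONS_00027179 matched 65, 62 and 58 nt of Dcakd (chr11:103017098-103017397, minus strand) on the opposite strand, and their partner TCONS_00008085 matched 55 nt of it on the same strand. TCONS_00129240 and TCONS_00193424 shared 59 nt in an alignment of 139 nt, and this pair was not called B1-like. They matched 59 and 62 nt at the end of the window of Insl5 (chr4:103027222-103027521, minus strand), an insulin-like peptide gene. The matches were on the same and on the opposite strand.

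At least 20 nt were shared with a miRNA hairpin by 118 members (46.8%) and by 832 of all records (10.3%). The share was 83 of 135 members by a simple repeat (61.5%) and 36 of 120 by another stretch (30%). Members chosen for AC or GU runs readily match hairpins that hold such runs, so the rule enters this contrast. Only 34 members had a match that was no simple repeat, and 84 members matched the repeat-rich hairpin Mir466k. Matches that were no simple repeat were not counted over all records. The longest match was 50 nt of Mir3473f (chr1:106546496-106546631) on the opposite strand of TCONS_00128861, of which 32 nt lay in its shared stretch with TCONS_00211933. TCONS_00211933 matched 45 nt of Gm51275 on its deposited strand. TCONS_00166313 matched 45 nt of Mir680-1 and 41 nt of Mir680-2, both outside its shared stretch. TCONS_00130766 and TCONS_00141458 matched 30 nt of Mir1954 as deposited, and their partners TCONS_00205638 and TCONS_00213322 matched 29 nt of it on the opposite strand.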

How the data were processed

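The authors sequenced 6 cortex libraries, 3 control and 3 SAH, and the submitters' processing notes name TopHat2 and the mouse build mm10. The assembler and the folding program are not given in the sources used here. The deposited data hold, pooled over the libraries, an RNA sequence, a dot-bracket structure and a free energy for each of 8040 records. No expression values were used, so the planned differential test was not run.

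Every 50-nt word was searched against the reverse complement of all records, and words on the same diagonal were merged into maximal exact stretches. Stretch position allowed 10 nt to a record end. The search was tested on simulated data, in which 151 of 151 planted stretches of at least 50 nt were found at their length and position and 0 others. Pairs outside simple repeats were aligned with blastn 2.17.0 (minus strand, word size 11, e-value 1e-05, no masking). RNAeval and RNAfold of ViennaRNA 2.7.2 were run with Turner 1999 parameters and dangling-end setting 1, with which the evaluated energy equalled the deposited one within 0.01 kcal/mol for all 252 members. Deposited energies are therefore in kcal/mol. Shares carry Wilson 95% intervals, which cover counting error only. Promoter windows (32851) and miRNA hairpins came from RefSeq (GRCm38.p6). A match to proteins was planned and not run. Python 3.11.15, numpy 2.4.6 and matplotlib 3.10.9 were used.

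The members and lists were chosen with earlier results of these data known. Named records were the longest of each position class, the self-complementary records, those with most partners or the longest reading frames, those at the limit of 50 nt, and those with the longest reference matches. Other names were chosen after their values were seen, namely further records of the repeat families, of the 9 pairs in 2 records only and of the exact alignments. The sequence of 1 B1-like pair is not reported here.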

Additional observations from a re-analysis of the deposited data

How the results depend on the processing

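Of 29 alternatives over 12 results, 13 left the value within 1.5 times, 1 SD or the Wilson interval, and 16 did not. The count of members depended on the stretch length. At 30 nt there were 1591 members, 26278 pairs and 30 self-complementary records, and at 100 nt 13 members, 7 pairs and 0 self-complementary records. Without simple-repeat stretches 120 members were left. Without words held by more than 5 records there were 162 pairs, and 59 pairs when records sharing 50 nt as deposited were merged. Head-to-head pairs numbered 0 with ends at 0 nt, 1 with merged records and 169 when the midpoint of the stretch decided, and tail-to-tail pairs 47 by midpoint. With alignments in place of exact stretches outside simple repeats, an alternative chosen after seeing the data, head-to-head and tail-to-tail pairs numbered 5 and 2. The 5 were 3 by alignment and the 2 simple-repeat pairs, which were not aligned. When 80 codons sufficed, 26.6% of members had a reading frame on their complement, against 19.6% of all records. The median length, GC content and free energy of members and the median paired share of the shared stretch stayed within 1 SD with 1 record per merged group (89 records). No paired analysis was possible because no value belongs to a library. The records give no depth, strand, exon or position.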

Other observations

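The uneven strands of dinucleotide runs held at every run length counted over all 8040 records. At 20 nt, 375 records held an AC run and 170 a GU run, at 40 nt 124 and 20, and at 50 nt 35 and 1. For CU and AG the counts were 89 and 66 at 20 nt, 52 and 23 at 40 nt, and 26 and 6 at 50 nt. B1 motifs were uneven as well. At least 2 of the 7 motifs lay on the deposited strand in 277 of all records, on the complement in 132 and on both in 9. Among the members the counts were 46, 19 and 3. Records that overlap are counted each, and the cause was not tested.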
